A study of Mus musculus with 18 samples.

Results

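The endoplasmic reticulum (ER) folding and stress genes described here were 33 genes listed by function: chaperones, disulfide isomerases, stress sensors, genes of ER-associated degradation and genes that move proteins into the ER. Each was represented by the probe set carrying only that gene symbol, and the brightest on average was kept where a gene had several. All 33 of 33 were measured, among 19938 genes with a usable probe set on the array. Their expression was compared in the visceral white adipose tissue (WAT) of male C57BL/6N mice aged 5 to 6 months, with 1 Affymetrix Mouse Gene 1.0 ST array per mouse and 18 mice in all. Streptozotocin (STZ) destroys pancreatic beta cells and makes mice diabetic, and bezafibrate (BEZ) is a lipid-lowering drug that activates the PPAR nuclear receptors. In the STZ, BEZ group (n = 5), mice had received STZ at 65 mg/kg into the peritoneum on 5 consecutive days at 10 to 16 weeks of age, and from 2 weeks later ate chow with 0.25 to 0.5% BEZ for 8 weeks. The STZ, SD group (n = 6) had the same STZ injections and standard diet (SD) without the drug. The Con, SD group (n = 7) received citrate buffer as mock injection and the same standard diet. All groups were wild-type, so diabetes rests on the chemical loss of beta cells and not on an inherited defect.

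Proteins destined for secretion, for membranes and for lysosomes are threaded into the ER, where chaperones fold them and oxidoreductases form their disulfide bonds, while misfolded chains are sent back to the cytosol for destruction by the proteasome. When unfolded chains accumulate, the membrane sensors IRE1, PERK and ATF6 start the unfolded protein response, in which IRE1 splices the messenger of the transcription factor XBP1, PERK slows translation, and cleaved ATF6 and spliced XBP1 turn on chaperone and degradation genes. Adipocytes secrete adipokines and lipases through this route. Exocrine pancreas, plasma cells and the lining of the epididymis also secrete protein heavily, and the epididymis lies against the gonadal fat pad of male mice.

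Members of the response share a promoter element, the ER stress response element (ERSE), which is read by ATF6 together with the factor NF-Y and is spelled CCAAT, 9 bases of any kind, then CCACG. It was searched on both strands in the 250 bases before each start in RefSeq promoter sequences (build GRCm38.p6), which covered 28 of the 33 genes. It was found in 10 of these 28 (35.7%), namely Hspa5, Hsp90b1, Calr, Canx, Pdia6, Dnajc3, Creld2, Syvn1, Derl3 and Ero1b, against 35 of 27025 genes (0.13%). The shorter ERSE-II, spelled ATTGG, 1 base, then CCACG, was found in 1 of the 28, Herpud1 (0.037% of all genes), and the XBP1 core TGACGTGG in 0 of the 28 (0.603% of all genes). No motif was searched in the 5 genes without an entry, and a match describes letters only. The sites below are those of Hspa5, the main chaperone gene, of Calr, Dnajc3, Creld2, Derl3 and Ero1b, and of Herpud1. The sites of Hsp90b1, Canx, Pdia6 and Syvn1 are not printed. They are read along the gene's own strand with the fixed motif letters in capitals. Where the element lies on the opposite strand it appears as CGTGG, 9 bases and ATTGG.
Hspa5 (chr2:34772017-34772051, + strand): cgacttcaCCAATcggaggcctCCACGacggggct
Calr (chr8:84847067-84847101, - strand): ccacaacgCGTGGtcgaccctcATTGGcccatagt
Dnajc3 (chr14:118937819-118937853, + strand): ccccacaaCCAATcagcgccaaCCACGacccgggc
Creld2 (chr15:88819512-88819546, + strand): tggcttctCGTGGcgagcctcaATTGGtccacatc
Derl3 (chr10:75893234-75893268, + strand): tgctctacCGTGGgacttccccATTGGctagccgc
Ero1b (chr13:12565674-12565708, + strand): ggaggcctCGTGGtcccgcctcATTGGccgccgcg
Herpud1 (chr8:94386369-94386395, + strand): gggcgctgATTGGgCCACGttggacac

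Some arrays carried marker RNA of neighboring organs. Signals are RMA values on the log2 scale, so that a difference of 1 is a doubling, and signals of different genes are not comparable. The mean over 23 measured genes of pancreatic acinar cells (of 26 listed) was 10.39, 8.65, 8.40, 7.90 and 5.76 on STZ, BEZ replicates 1 to 5. It was 12.89 on STZ, SD replicate 6, against 5.63 to 5.83 on the other STZ, SD arrays and 5.64 to 5.98 on the Con, SD arrays. On STZ, SD replicate 6, 23 of the 23 genes lay more than 1 above the highest Con, SD array, and 15 to 19 of them did on STZ, BEZ replicates 1 to 4. Acinar RNA was thus present on 4 STZ, BEZ arrays and 1 STZ, SD array. The mean over 17 measured genes of epididymis and testis (of 20 listed) was 5.93 to 6.32 in STZ, BEZ. It was 10.67 on STZ, SD replicate 3 and 8.07 on replicate 4, against 5.77 to 7.08 on the other STZ, SD arrays, and 10.48 and 10.74 on Con, SD replicates 3 and 5, against 6.57 to 8.50 on the other Con, SD arrays. Of these 17 genes, Con, SD replicates 2 and 4 and STZ, SD replicate 5 also had 3, 6 and 3 more than 1 above the highest STZ, BEZ array. Adipocyte genes (11 measured of 12) were lowest on STZ, SD replicate 6, at 10.42, and stood at 11.63 to 12.60 elsewhere. Plasma cell genes (10 of 10 measured) were highest on the same array, at 7.78, against 6.22 to 7.18 elsewhere. The mean over 10 skeletal muscle genes was 6.19 to 7.23 in STZ, BEZ, 6.25 to 6.45 in STZ, SD and 6.58 to 8.57 in Con, SD, so that STZ, SD and Con, SD did not overlap, and that over 10 mesothelium genes had medians of 8.89, 8.93 and 8.30 in the same order. The part of muscle and mesothelium RNA in the results was not tested. In such bulk tissue fewer cells of a type and less RNA per cell cannot be told apart.

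The mean over the ER genes varied more from mouse to mouse than between groups. The mean over the 33 genes was 9.54, 9.64, 9.48, 9.65 and 9.82 on STZ, BEZ replicates 1 to 5. On STZ, SD replicates 1 to 6 it was 9.57, 9.36, 10.22, 9.56, 9.56 and 10.76. On Con, SD replicates 1 to 7 it was 9.89, 9.53, 10.10, 9.57, 10.15, 9.52 and 9.53. The 4 highest arrays were thus STZ, SD replicates 6 and 3 and Con, SD replicates 5 and 3, which are also the arrays with the highest acinar mean or the 3 highest epididymis means. Of the 33 genes, 19 had their highest signal of all 18 arrays on STZ, SD replicate 6 and 7 on STZ, SD replicate 3. The shares of all genes that were highest on these arrays were not counted. The SD over mice was smallest in STZ, BEZ for 30 of the 33 genes, with a median SD of 0.157, against 0.530 in STZ, SD and 0.270 in Con, SD (all genes: 0.133, 0.242 and 0.189).

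**Figure D1:**
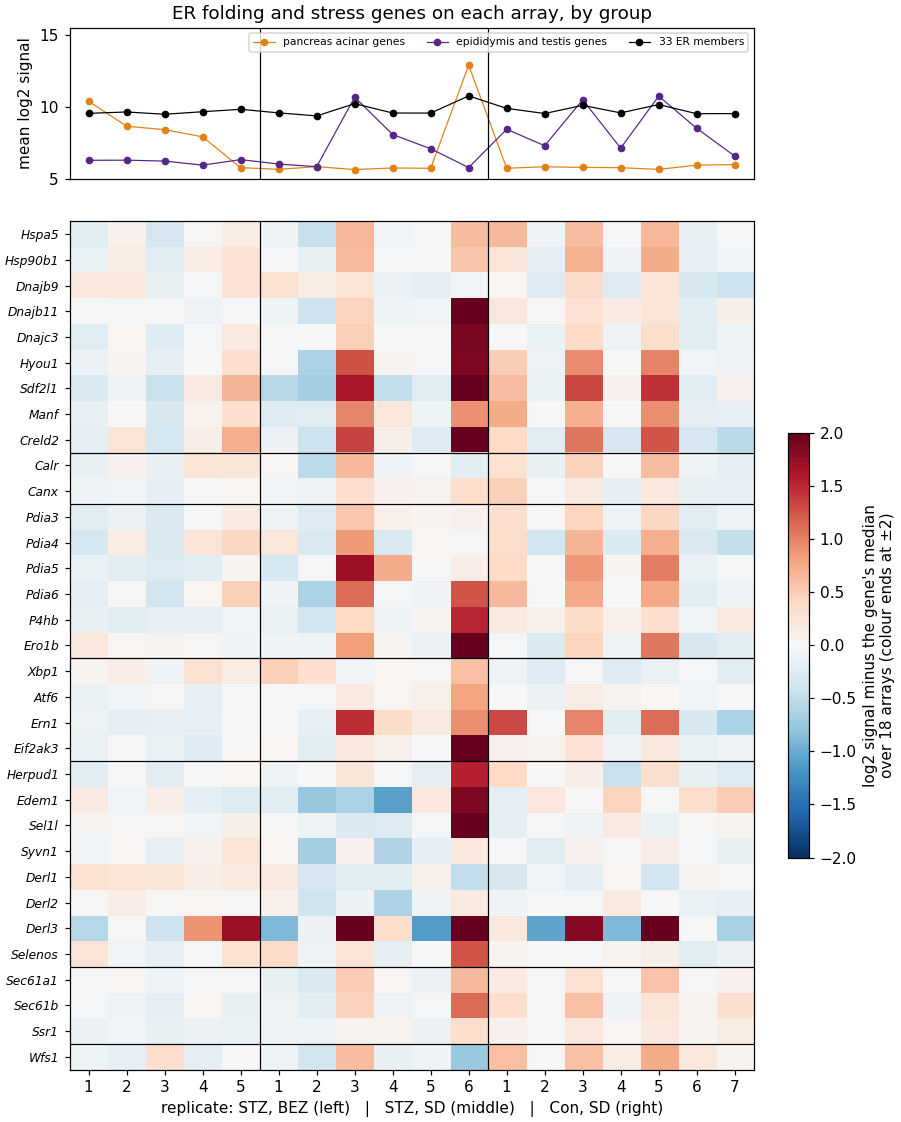
Top: mean log2 signal per array of 23 pancreas acinar genes, 17 epididymis and testis genes and the 33 ER genes (heights of the 3 lines are not comparable with each other). Bottom: log2 signal of each ER gene minus its median over 18 arrays, rows grouped by function, columns by group and replicate. The red columns are STZ, SD replicates 3 and 6 and Con, SD replicates 1, 3 and 5.

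The arrays that stood apart did not raise the same genes to the same degree. On STZ, SD replicate 6, 16 of the 33 genes lay more than 1 above the median of STZ, SD replicates 1, 2, 4 and 5, where 4.19% of all genes did. The largest were Ero1b, an oxidase that recharges the disulfide isomerases (+4.87), Derl3, a derlin of the degradation channel (+4.31), and Sdf2l1, a partner of the chaperone complex (+3.18). Next came Sel1l and Edem1, which bring glycoproteins to the degradation machinery (+2.36 each), the stress-inducible Creld2 (+2.30), the sensor PERK, Eif2ak3 (+2.25), and the co-chaperone Dnajb11 (+2.24). On STZ, SD replicate 3, 8 genes lay more than 1 above that median (5.19% of all genes), led by Derl3 (+3.00), Sdf2l1 (+2.15), the isomerase Pdia5 (+1.73), Creld2 (+1.55) and the sensor IRE1, Ern1 (+1.37). Pdia5 was at +0.15 on replicate 6, and Sel1l, Edem1 and Eif2ak3 were at -0.22, -0.14 and +0.19 on replicate 3. In Con, SD, replicates 3 and 5 were both above all of replicates 2, 4, 6 and 7 in 25 of the 33 genes (16.3% of all genes). Con, SD replicate 1, with an epididymis mean of 8.43, had 11 genes more than 0.5 above the median of those 4 arrays. It had 1 gene more than 1 above it (4.24% of all genes), and the share of all genes over 0.5 was not counted. Con, SD replicate 6, with a mean of 8.50, had 0 genes more than 0.5 above their median over the 18 arrays.

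**Figure D2:**
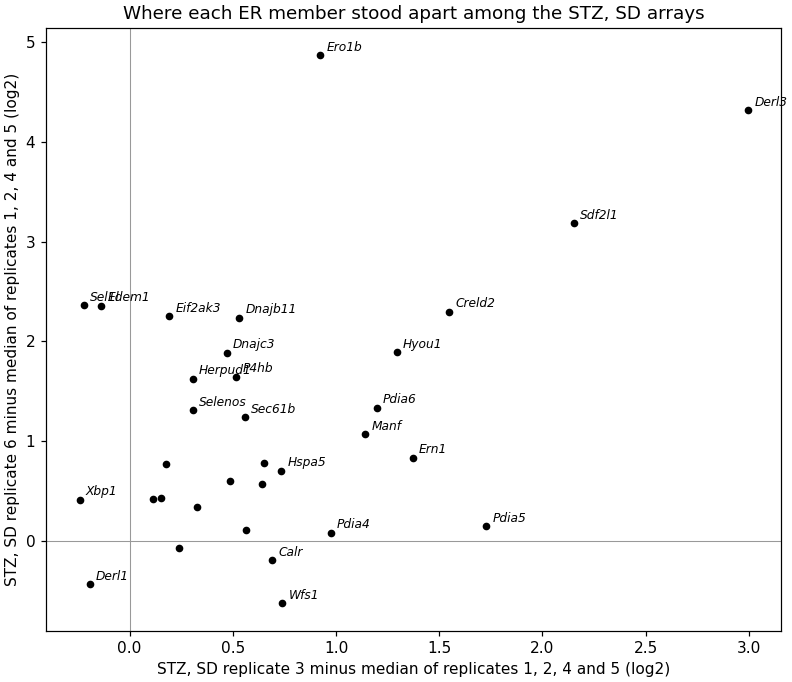
Each point is 1 ER gene. The x axis gives its log2 signal on STZ, SD replicate 3 and the y axis on STZ, SD replicate 6, both minus the median of STZ, SD replicates 1, 2, 4 and 5. Derl3 and Sdf2l1 were high on both arrays, Ero1b, Sel1l, Edem1 and Eif2ak3 mainly on replicate 6, and Pdia5 mainly on replicate 3.

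On STZ, BEZ replicates 1 to 4 the acinar mean was 7.90 to 10.39, below the 12.89 of STZ, SD replicate 6. The mean over the 33 genes on these arrays was 9.48 to 9.65, against 9.82 on STZ, BEZ replicate 5. Within STZ, BEZ the highest signal fell on replicate 5, the array with an acinar mean of 5.76, for 21 of the 33 genes. It fell on each of replicates 1 to 4 for 3 genes. The shares of all genes were not counted, so these counts describe the members only. Derl3 was 7.16, 7.73, 7.31, 8.62 and 9.45 on STZ, BEZ replicates 1 to 5, and Ero1b was 6.85, 6.65, 6.69, 6.64 and 6.53. Ero1b was thus highest on replicate 1 and lowest on replicate 5 of STZ, BEZ, while Derl3 ran the other way at these 2 arrays. Ero1b was 6.54, 6.51, 7.45, 6.67, 6.50 and 11.39 on STZ, SD replicates 1 to 6, and 6.60, 6.32, 7.06, 6.52, 7.67, 6.29 and 6.40 on Con, SD replicates 1 to 7. The 4.87 difference of STZ, SD replicate 6 was found on that array alone. The part of pancreatic or epididymal RNA in the levels of any ER gene was not tested beyond the values without these arrays given below and fits with marker means as covariates.

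The first comparison asked how diabetes altered these genes. In STZ, SD vs. Con, SD, 1 of the 33 genes was higher, Xbp1, and 0 were lower (limma over 18 arrays, Benjamini-Hochberg adjusted p under 0.10 over all genes), where 10.3% of all genes passed, 5.82% higher and 4.52% lower. Unadjusted p was under 0.05 for 2 members, Xbp1 and Wfs1. The median difference of the 33 was +0.05, with 18 above 0 and 15 below, and the median of all genes was -0.03. The 95% interval of the difference lay between -1 and 1 for 29 of the 33, the exceptions being Creld2, Derl3, Ero1b and Sdf2l1. In 0 of the 33 genes did the arrays of both groups fail to overlap (1.62% of all genes).

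Xbp1 encodes the transcription factor whose messenger IRE1 splices, and the array does not separate the spliced form. Its signal was 11.73, 11.59, 11.20, 11.30, 11.29 and 11.86 on STZ, SD replicates 1 to 6. It was 11.16, 11.01, 11.22, 11.00, 11.13, 11.24 and 11.05 on Con, SD replicates 1 to 7. Replicates 1, 2 and 6 of STZ, SD were the highest, every STZ, SD array lay above the Con, SD mean, and replicate 3 fell within the Con, SD range. The difference was +0.38 ± 0.10 (SE, limma, adjusted p = 0.0394), or 1.30-fold, and it passed in 18 of 18 fits that each left out 1 mouse (highest adjusted p = 0.0910). On Con, SD replicates 1, 3, 5 and 6, the arrays of that group with the higher epididymis means (8.43 to 10.74), Xbp1 stood at 11.13 to 11.24, against 11.00 to 11.05 on the other 3 (6.57 to 7.29). Without the 6 arrays over 1 above every STZ, BEZ array in epididymis mean (Con, SD replicates 1, 3, 5 and 6 and STZ, SD replicates 3 and 4) and without STZ, SD replicate 6, it was +0.52 (limma, adjusted p = 0.0307).

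The other 3 sensors and factors did not pass. Atf6 differed by +0.17 ± 0.11, Ern1 by +0.15 ± 0.32 and Eif2ak3 by +0.35 ± 0.29 (SE). Among the 9 luminal chaperones and co-chaperones, 0 passed, and the median was +0.11, or -0.16 without STZ, SD replicate 6. Hspa5, the chaperone BiP that holds the sensors inactive, differed by -0.13 (95% interval -0.54 to 0.27), and Hsp90b1, its HSP90-type partner, by -0.01 (-0.38 to 0.37). Hspa5 stood at 10.86 to 11.98 in STZ, SD and at 11.17 to 11.98 in Con, SD, and replicates 3 and 6 were the highest of STZ, SD. The lectin chaperones Calr and Canx differed by -0.17 ± 0.17 and +0.06 ± 0.11, the 6 isomerase and oxidase genes had a median of +0.04, and the 3 translocation genes Sec61a1, Sec61b and Ssr1 lay between -0.06 and -0.03, each with 0 calls.

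The remaining chaperones and degradation genes did not pass. Hyou1, which reloads BiP with nucleotide, ranged over 8.15 to 10.65 in STZ, SD and 8.68 to 9.77 in Con, SD, with a difference of +0.11 ± 0.33 (SE). Manf, a small secreted protein that binds BiP, ranged over 7.93 to 9.16 and 8.00 to 9.11 in the same groups and differed by -0.04 ± 0.24. Dnajc3, a co-chaperone that restrains PERK, was 9.83, 9.84, 10.31, 9.83, 9.84 and 11.72 on STZ, SD replicates 1 to 6 and differed by +0.36 ± 0.25. Dnajc3 was thus level on replicates 1, 2, 4 and 5 and higher on replicates 3 and 6. The isomerases Pdia3, Pdia4 and Pdia6 differed by -0.05, +0.03 and -0.01, and the degradation genes Herpud1, Selenos, Syvn1 and Derl2 by +0.25, +0.29, -0.16 and -0.13, each with an adjusted p of 0.403 (Selenos) or above. Derl2, a derlin like Derl1 and Derl3, was 8.40 to 9.20 in STZ, SD and 8.85 to 9.21 in Con, SD.

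Wfs1, whose loss causes a syndrome with diabetes in humans, encodes an ER membrane protein and was the most negative member. It was 8.53, 8.22, 9.23, 8.47, 8.50 and 7.86 on STZ, SD replicates 1 to 6, and 9.21, 8.61, 9.20, 8.76, 9.35, 8.84 and 8.67 on Con, SD replicates 1 to 7. Of the STZ, SD arrays only replicate 3 lay within the Con, SD range, and it was the STZ, SD array with the highest epididymis mean. The difference was -0.48 ± 0.18 (SE, limma, adjusted p = 0.125), and it passed in 1 of 18 fits that each left out 1 mouse, without STZ, SD replicate 3 (-0.63, limma, adjusted p = 0.0183). Without STZ, SD replicate 6, its lowest array, the difference was -0.36 (adjusted p = 0.200), and without the epididymis arrays as well it was -0.26 (adjusted p = 0.275).

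**Figure D3:**
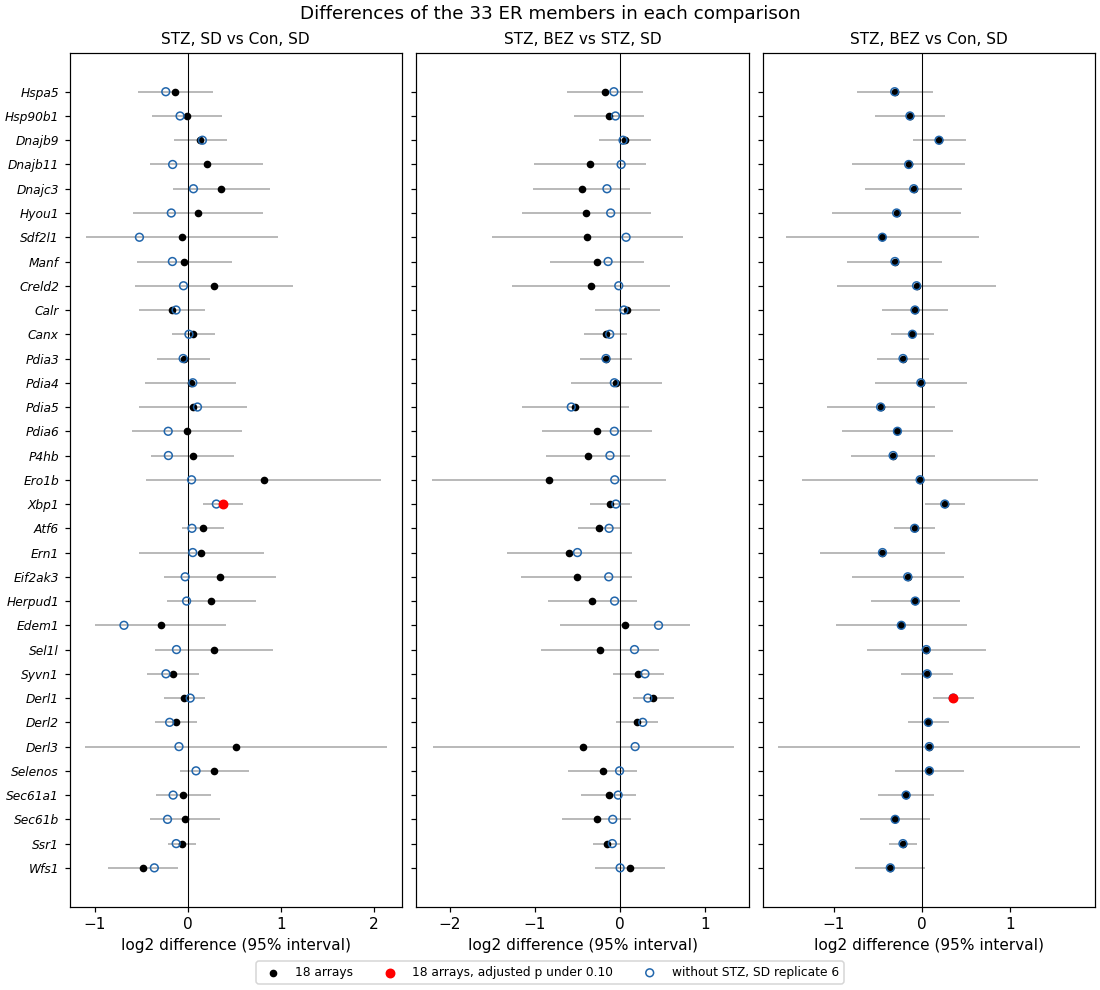
Log2 difference of each ER gene in the 3 comparisons, with its 95% interval (grey). Filled points are from 18 arrays, with red for adjusted p under 0.10 (Xbp1 in STZ, SD vs. Con, SD and Derl1 in STZ, BEZ vs. Con, SD). Open circles leave out STZ, SD replicate 6, and most shift to lower values in the first comparison and to higher values in the second.

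STZ, SD replicate 6 moved many of these differences. Without it the median of the 33 in STZ, SD vs. Con, SD was -0.10 (all genes -0.03), 11 lay above 0 and 22 below, and 14.5% of all genes passed. Xbp1 remained higher at +0.31 (limma, adjusted p = 0.0518) and Edem1 was lower at -0.69 (adjusted p = 0.0319). Edem1, which recognizes misfolded glycoproteins and hands them to degradation, had 9.99, 9.46, 9.59, 9.14 and 10.43 on STZ, SD replicates 1 to 5 and 12.09 on replicate 6. It had 10.03, 10.45, 10.23, 10.66, 10.21, 10.57 and 10.73 on Con, SD replicates 1 to 7. STZ, SD replicates 1 to 4 lay below every Con, SD array. Con, SD replicates 1, 3 and 5, the lowest of their group in Edem1, were also its lowest in adipocyte mean. STZ, SD replicate 6 went the other way, highest in Edem1 and lowest in that mean. The part of adipocyte content in the Edem1 difference was not tested. With all arrays the Edem1 difference was -0.29 ± 0.33 (SE, adjusted p = 0.678). Without all 5 arrays carrying acinar RNA, where 9.07% of genes passed, the same 2 genes passed (Edem1 -0.69, adjusted p = 0.0770, and Xbp1 +0.31, adjusted p = 0.0970). Without the epididymis arrays and STZ, SD replicate 6 (3 mice against 3, 14.7% of genes), Edem1 was lower at -0.65 (adjusted p = 0.0778), Dnajb11 was lower at -0.29 (adjusted p = 0.0973), and Xbp1 was higher as given above.

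The second comparison asked what BEZ did in diabetic mice. In STZ, BEZ vs. STZ, SD, 0 of the 33 genes passed in either direction, where 0.707% of all genes did, 0.682% higher and 0.0251% lower. Unadjusted p was under 0.05 for 2 members, Derl1 and Atf6. The differences had a median of -0.23 (all genes +0.01), with 7 above 0 and 26 below. The most negative was Ero1b at -0.84 (95% interval -2.22 to 0.54), and for 23 of the 33 the interval lay between -1 and 1. Without STZ, SD replicate 6 the median was -0.06 with 11 above 0 and 22 below, and again 0 passed (0.592% of all genes). Leaving out the 5 arrays with acinar RNA kept 1 STZ, BEZ mouse, assumed to vary like the other groups, and gave a median of +0.14 and 0 passing (0.662% of all genes). Without the epididymis arrays and STZ, SD replicate 6 the median was +0.10 and 0 passed (0.0702% of all genes). The sign of the members' median thus turned with the arrays that were kept. In 0 of the 33 were the 2 groups fully apart (1.49% of all genes).

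All 6 isomerase and oxidase genes, 4 of 4 sensors and factors and 3 of 3 translocation genes lay below 0 in this comparison, as did 8 of the 9 luminal chaperones (median -0.34), the exception being Dnajb9 at +0.06. These directions turned with the arrays kept. Without STZ, SD replicate 6 the luminal chaperones had a median of -0.05 with 3 of 9 above 0, and without the epididymis arrays as well 8 of 9 chaperones, 5 of 6 isomerase and oxidase genes and 2 of 3 translocation genes lay above 0, while 4 of 4 sensors and factors lay below. With all arrays the degradation genes split 4 and 4, with Derl1, Syvn1 (+0.22), Derl2 (+0.20) and Edem1 (+0.06) above 0. Syvn1 is the ubiquitin ligase of the degradation complex and Sel1l, at -0.23, its adaptor. Atf6 was 9.04 to 9.23 in STZ, BEZ, against 9.17 to 9.40 on STZ, SD replicates 1 to 5 and 9.99 on replicate 6, and differed by -0.25 ± 0.12 (SE, limma, adjusted p = 0.479). Hspa5 was 11.10, 11.40, 10.98, 11.34 and 11.47 on STZ, BEZ replicates 1 to 5, all inside the STZ, SD range, and differed by -0.18 (95% interval -0.62 to 0.27).

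Derl1 came nearest to the threshold in this comparison. It encodes a derlin, a membrane protein of the channel through which misfolded proteins leave the ER. Its signal was 11.34, 11.30, 11.28, 11.17 and 11.24 on STZ, BEZ replicates 1 to 5, against 11.22, 10.71, 10.79, 10.82, 11.14 and 10.55 on STZ, SD replicates 1 to 6. All STZ, BEZ arrays but replicate 4 were above every STZ, SD array. The difference was +0.39 ± 0.11 (SE, limma, adjusted p = 0.198). It did not pass in 16 of 18 fits that left out 1 mouse (highest adjusted p = 0.428, without STZ, SD replicate 4). The exceptions left out the 2 highest STZ, SD arrays, replicate 1 (+0.46, adjusted p = 0.0374) and replicate 5 (+0.45, adjusted p = 0.0807). Without STZ, SD replicate 6 it was +0.33 (adjusted p = 0.319). Xbp1, which was higher in STZ, SD than in Con, SD, was 11.31, 11.40, 11.19, 11.57 and 11.40 on STZ, BEZ replicates 1 to 5. These fell inside the STZ, SD range but for replicate 3, just under it, and the difference from STZ, SD was -0.12 (95% interval -0.36 to 0.11, adjusted p = 0.788).

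The third comparison set the treated diabetic mice against healthy ones, and it shares its arrays with the other comparisons. In STZ, BEZ vs. Con, SD, 1 of the 33 was higher, Derl1, and 0 were lower, where 5.95% of all genes passed, 4.57% higher and 1.38% lower. Unadjusted p was under 0.05 for 3 members, Derl1, Ssr1 and Xbp1. The median difference was -0.14 (all genes -0.01), with 8 above 0 and 25 below. Con, SD arrays had Derl1 at 10.72, 10.99, 10.86, 11.08, 10.65, 11.09 and 10.99 on replicates 1 to 7, so that every STZ, BEZ array lay above every Con, SD array. The mean of the adipocyte genes was apart in the same direction, 12.53 to 12.60 in STZ, BEZ and 11.78 to 12.48 in Con, SD, and both Derl1 and that mean were lowest on STZ, SD replicate 6 of all arrays and on Con, SD replicate 5 within Con, SD. The part of adipocyte content in the Derl1 difference was not tested. The difference was +0.35 ± 0.11 (SE, limma, adjusted p = 0.0952), or 1.28-fold. The call did not hold in 11 of 18 fits that left out 1 mouse: adjusted p was 0.154, 0.125, 0.145, 0.170 and 0.120 without Con, SD replicate 1, 2, 3, 5 or 7, 0.110 without STZ, SD replicate 4, and 0.174, 0.212, 0.149, 0.134 and 0.196 without STZ, BEZ replicate 1, 2, 3, 4 or 5. The difference itself kept between +0.31 and +0.38 in these fits.

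Groups did not overlap in 3 of the 33 genes (9.09%, against 6.8% of all genes): Derl1, P4hb and Ssr1. P4hb, the main protein disulfide isomerase, was 10.81, 10.75, 10.79, 10.79 and 10.90 on STZ, BEZ replicates 1 to 5 and 11.16, 11.06, 11.34, 11.06, 11.30, 10.90 and 11.15 on Con, SD replicates 1 to 7. STZ, BEZ replicate 5 and Con, SD replicate 6 lay almost level at the edge of the 2 groups. The difference was -0.33 ± 0.23 (SE, adjusted p = 0.469). Ssr1, a subunit of the translocon-associated complex, was 11.17, 11.23, 11.13, 11.18 and 11.16 on STZ, BEZ replicates 1 to 5 and 11.37, 11.25, 11.51, 11.33, 11.50, 11.34 and 11.44 on Con, SD replicates 1 to 7. Its difference was -0.22 ± 0.08 (SE, limma, adjusted p = 0.140). Without STZ, SD replicate 6, an array of neither group that widens the shared estimate of spread, 10.5% of all genes passed, and so did Ssr1 (adjusted p = 0.0398), P4hb (adjusted p = 0.0802) and Derl1 (adjusted p = 0.0471) at unchanged differences.

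**Figure D4:**
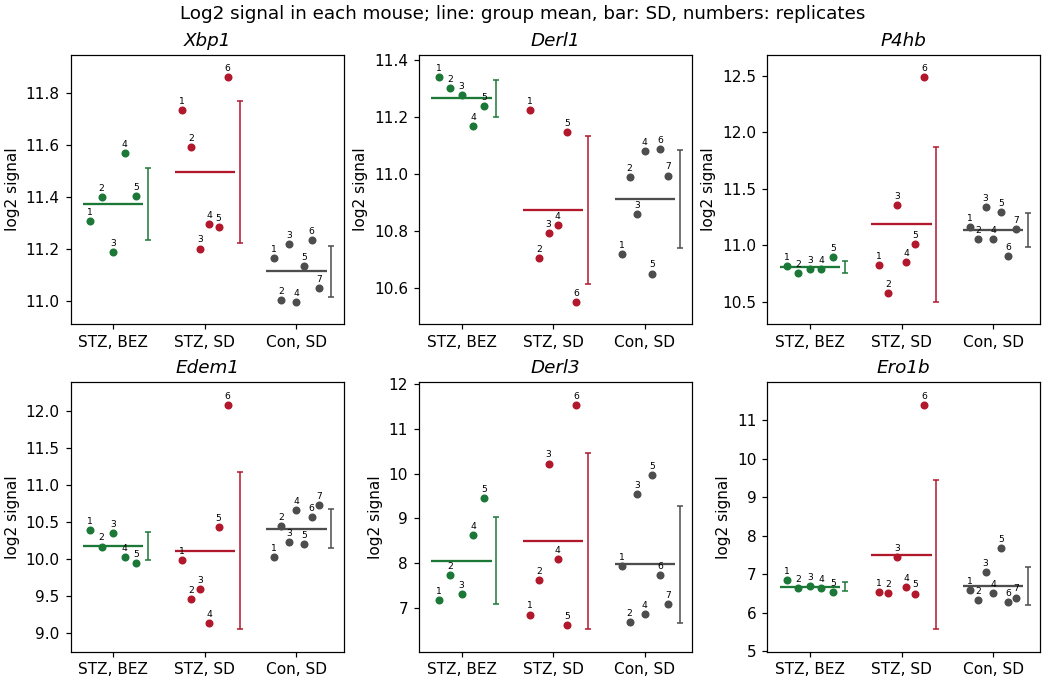
Log2 signal of 6 ER genes in each mouse, with replicate numbers, group means (lines) and SD (bars) for STZ, BEZ (n = 5), STZ, SD (n = 6) and Con, SD (n = 7). Every STZ, BEZ array lies above every Con, SD array for Derl1 and below every one for P4hb, and STZ, SD replicate 6 is far above its group for Edem1 and Ero1b.

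Con, SD replicates 3 and 5, with the highest epididymis means, had the highest P4hb and Ssr1 signals of their group, and no STZ, BEZ array had an epididymis mean above 6.32. Without those arrays and STZ, SD replicate 6, leaving 5 STZ, BEZ and 3 Con, SD mice, 11.8% of all genes passed, and P4hb was at -0.28 (adjusted p = 0.101), Ssr1 at -0.16 (adjusted p = 0.179) and Derl1 at +0.24 (adjusted p = 0.220). In that fit 3 members were higher: Dnajb9, a BiP co-chaperone (+0.42, adjusted p = 0.0790), Xbp1 (+0.36, adjusted p = 0.0791) and Ero1b (+0.26, adjusted p = 0.0883). The median of the 33 was then +0.04. With 1 STZ, BEZ mouse left after removal of the acinar arrays, 0 of the 33 passed (1.4% of all genes).

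By function, ER-associated degradation was the group in which most members lay above 0 in STZ, BEZ vs. Con, SD, 6 of 8 with a median of +0.06 and Derl1 as the single call. Of the 9 luminal chaperones, 8 lay below 0 (median -0.15), as did 6 of 6 isomerase and oxidase genes (median -0.25), 3 of 3 translocation genes (median -0.22) and 2 of 2 lectin chaperones (median -0.09), with 0 calls in each. All genes had a median of -0.01. Without the epididymis arrays and STZ, SD replicate 6, 6 of the 9 luminal chaperones (median +0.05), 3 of 6 isomerase and oxidase genes, 2 of 2 lectin chaperones and 0 of 3 translocation genes lay above 0. With all arrays Hspa5 differed by -0.31 (95% interval -0.74 to 0.12).

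Beyond the 33 members, 97 further genes of the same pathways were measured. In STZ, SD vs. Con, SD 6 of the 97 were higher and 5 lower (11.3%, against 10.3% of all genes). In STZ, BEZ vs. STZ, SD 0 passed (0.707% of all genes), and in STZ, BEZ vs. Con, SD 3 were higher and 2 lower (5.15%, against 5.95% of all genes). These shares were near those of all genes. Of 12 genes measured in the branch below PERK and its target ATF4, 4 passed in the first comparison, where 10.3% of all genes did. The mean over the 12 was level, with a median over arrays of 8.30 in STZ, SD (8.09 to 8.87) and 8.29 in Con, SD (8.07 to 8.41). The genes of this branch that did not pass are not given here. Each of the other lists had fewer calls. Asns, the asparagine synthetase, Ppp1r15b, a phosphatase subunit that restores translation, and Ddit4, an inhibitor of mTOR signaling, were higher. The stress gene Sesn2 was lower. For Ddit4 no difference and no fit with arrays left out is given here. Asns averaged 11.79 ± 0.26 in STZ, BEZ, 11.59 ± 0.56 in STZ, SD and 10.83 ± 0.31 in Con, SD (SD). It was +0.95 in STZ, BEZ vs. Con, SD (limma, adjusted p = 0.0287) and +0.75 in STZ, SD vs. Con, SD (limma, adjusted p = 0.0457), and the lowest STZ, BEZ array, at 11.48, lay above the highest Con, SD array, at 11.27. Ppp1r15b was +0.51 and +0.45 in these comparisons (limma, adjusted p = 0.0827 and 0.0741), and Sesn2 was -0.48 in STZ, SD vs. Con, SD (adjusted p = 0.0433). Dad1, a subunit of the enzyme that attaches N-glycans, was -0.35 in STZ, BEZ and -0.31 in STZ, SD against Con, SD (limma, adjusted p = 0.0252 and 0.0274). Its calls remained without STZ, SD replicate 6 (adjusted p = 0.0128 and 0.0362) and without the epididymis arrays as well (adjusted p = 0.0331 and 0.0386). Sec63 and Spcs2 of the translocon and signal peptidase (+0.29 and +0.46) and the oxidoreductase Tmx1 (+0.30) were higher in STZ, SD vs. Con, SD, and Nploc4, a cofactor of the extraction ATPase (-0.27), and Bak1, a death effector (-0.55), were lower. The transcription factor Creb3 was lower in STZ, BEZ vs. Con, SD (-0.29). Sec23a, a coat protein of vesicles leaving the ER, was -0.47 in STZ, SD vs. Con, SD (adjusted p = 0.0347), and Sec24b of the same coat was +0.57 in STZ, BEZ vs. Con, SD (adjusted p = 0.0227). Several calls of STZ, SD vs. Con, SD were lost with arrays left out. Without STZ, SD replicate 6, adjusted p was 0.109 for Ppp1r15b, 0.121 for Tmx1, 0.131 for Nploc4 and 0.1002 for Bak1. Without the epididymis arrays as well it was 0.138 for Sesn2, 0.200 for Sec63, 0.115 for Spcs2, 0.203 for Tmx1 and 0.341 for Nploc4.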

How the data were processed

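The deposited values analyzed here are log2 signals of 35556 probe sets on 18 arrays. The authors made them with RMA, per the submitters' processing notes in Affymetrix Expression Console 1.2. A table of GEO's platform annotation named 23410 probe sets, of which 21789 had 1 symbol and were used, and symbols were updated through Entrez identifiers. The brightest probe set stood for each gene. No level for background is given in the table, so no gene is called absent. The 3 group comparisons were fitted together in limma 3.58.1 (R 4.3.3, 15 residual and 2.4 prior degrees of freedom), with Benjamini-Hochberg adjustment over 19938 genes and a threshold of 0.10. The fit was tested on simulated data.

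Members and gene lists were chosen with earlier results of these data known. By rule, values were given for members passing in any comparison with all arrays or without the arrays carrying acinar RNA (Xbp1, Derl1, Edem1). The other members shown in full, P4hb, Ssr1, Wfs1, Ero1b and Derl3, were chosen after their values were seen. An array was said to carry acinar or epididymis RNA when the marker mean lay over 1 above the highest array of Con, SD or of STZ, BEZ. Alternatives were another threshold, all probe sets, a filter on dim genes, array medians set to 0, quantile normalization, a variance trend, array weights, only the arrays compared, SAM (the study's test), a replicate block, marker means as covariates, and leaving out arrays. Each mouse is 1 sample, and the number of arrays limits the precision. Liver and muscle were not analysed here.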

Additional observations from a re-analysis of the deposited data

Results flagged for a closer look

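Among 99 sets of values (33 genes in each of 3 groups), 7 had 1 array far from the others of its group by Dixon's test at the 95% level, which chance gives in about 1 in 20 groups. All 7 were the highest array of STZ, SD, replicate 6, the array with an acinar mean of 12.89. The log2 signals there were 10.83 for Dnajb11, 11.72 for Dnajc3, 9.99 for Atf6, 10.25 for Eif2ak3, 11.72 for Herpud1, 12.29 for Sel1l and 11.39 for Ero1b. The part of pancreatic RNA in these values was not tested.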

How the results depend on the processing

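Of 3363 member differences recomputed under alternatives, 3275 kept their side of the threshold (246 of them changed sign without passing), 64 passed only under the alternative, 20 no longer passed and 4 reversed. The count of members called moved as follows. In STZ, SD vs. Con, SD 1 was lower, Wfs1, with a filter on dim genes, with quantile normalization and with the replicate block. The block gave -0.53 for Wfs1 (limma, adjusted p = 0.0740) and left 0 higher. With the acinar mean as covariate and without the acinar arrays 1 was lower, Edem1. Leaving out 1 mouse gave 0 to 1 lower. In STZ, BEZ vs. STZ, SD SAM called 1 higher (all 19938 genes: 460) and leaving out 1 mouse gave 0 to 1 higher. The acinar covariate gave 1 higher and 9 lower (all genes: 1252 and 600). In STZ, BEZ vs. Con, SD 0 were higher at a threshold of 0.05, with all probe sets, array medians set to 0, a variance trend, the replicate block, without the acinar arrays or without the epididymis arrays. Array weights and only the arrays compared gave 2 higher and 2 lower each (all 19938 genes: 2360 and 1444, and 1984 and 836). SAM gave 2 higher and 5 lower (all genes: 3150 and 1395). A filter on dim genes gave 1 lower (of 9969 genes, 328), and the acinar covariate 9 lower (all genes: 1445). Leaving out 1 mouse gave 0 to 1 higher and 0 to 2 lower. Only STZ, SD replicate 6 had an acinar mean above 10.39. How far the slope of the acinar covariate rests on that array was not tested. Without that array, 0 members passed in STZ, BEZ vs. STZ, SD. In STZ, BEZ vs. Con, SD, only P4hb and Ssr1 of the genes called lower with the covariate then passed as lower. Ero1b was -1.28 there with the covariate and -0.02 without that array. Its signals were 6.53 to 6.85 in STZ, BEZ and 6.29 to 7.67 in Con, SD.

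Fits without the epididymis arrays and with both marker means as covariates were chosen after seeing the data. Without the epididymis arrays and STZ, SD replicate 6, 2 were lower in STZ, SD vs. Con, SD and 3 higher in STZ, BEZ vs. Con, SD. Both covariates gave 2 higher and 1 lower in STZ, SD vs. Con, SD (all genes: 2216 and 1760). They gave 2 higher and 8 lower in STZ, BEZ vs. STZ, SD (all genes: 1344 and 831) and 7 lower in STZ, BEZ vs. Con, SD (all genes: 1603). The part of STZ, SD replicate 6 in these calls was not tested. Reversed were Dnajb11 in STZ, SD vs. Con, SD (-0.29 without those 7 arrays, +0.20 with all), Ero1b in STZ, BEZ vs. Con, SD (+0.26 and -0.02) and Sel1l in the same comparison (-0.60 with the acinar covariate, -0.71 with both, +0.05 with neither). Ero1b in STZ, BEZ vs. Con, SD was also called lower with the acinar covariate (-1.28, limma, adjusted p = 0.0399), so its calls went both ways. The cause was not tested. Replicate numbers did not pair the mice (median r of deviations -0.00958 over 16 same-number pairs), and with the replicate block Xbp1 was not called (+0.37, adjusted p = 0.111). The other probe set of Pdia4, at a mean of 5.96, gave +0.45 in STZ, BEZ vs. Con, SD (adjusted p = 0.0915 over all probe sets), against -0.01 for the one used, on which the counts rest.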
